A study of Mus musculus with 6 samples.

Results

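The Sm-ring and U7 Lsm genes encode the proteins that the SMN complex loads onto small nuclear RNAs. They were taken by gene symbol and comprise Snrpb, Snrpd1, Snrpd2, Snrpd3, Snrpe, Snrpf, Snrpg, Snrpn, Lsm10 and Lsm11, which are 10 of the 25576 genes with a value in the bulk-seq data. Whole spinal cord of FVB mice at postnatal day 4 was sequenced after removal of ribosomal RNA, with 3 libraries labelled control and 3 labelled SMA. Control mice were heterozygous for the Smn knockout (mSmn+/-, hSMN22tg/0) and SMA mice were homozygous for it (mSmn-/-, hSMN22tg/0), so that both groups carried the human SMN2 transgene. The study states that bulk-seq was done as triplicates with n = 1 per group. The replicates may therefore be technical, and p-values measure only the spread between these libraries. Values are FPKM, fragments scaled to exon length and to the number of mapped fragments, and the depth in reads is unknown.

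In the spliceosomal small nuclear ribonucleoproteins, SmB, SmD1, SmD2, SmD3, SmE, SmF and SmG close into a ring around a short uridine-rich stretch of the RNA called the Sm site. SmN, made from the imprinted gene Snrpn, is a close relative of SmB found mainly in brain and can take its place. In the U7 particle, which cuts the 3′ ends of replication-dependent histone pre-mRNAs, Lsm10 and Lsm11 stand in for SmD1 and SmD2, and the SMN complex assembles both kinds of ring.

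The U7 RNA, which carries the ring with Lsm10 and Lsm11, is given from GENCODE M21 (GRCm38). It is written as DNA, 5′ to 3′, with the letters ATTTNT in capitals. These letters were searched on the RNA strand only, as a short form of the Sm site. They occur in 56.0% of the 1383 annotated snRNA transcripts of up to 200 bases and in 10.1% of the 5864 other transcripts of that size. A match is a description and not a mapped site. The gene for U7, Rnu7, lies at chr6:124741225-124741286 on the minus strand, and Rnu7 has no value in the bulk-seq data.
Rnu7: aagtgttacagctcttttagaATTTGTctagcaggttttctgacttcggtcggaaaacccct
The RNA holds the letters once, from base 22.

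Smn1, the targeted gene, measured 10.4, 8.64 and 11.9 FPKM in the control libraries (replicates 1, 2 and 3), against 8.48, 9.30 and 11.1 FPKM in the SMA libraries. The groups overlapped, so that the gene-level values do not check the genotype labels, and SMA and control are used here as the labels give them. Control replicate 2 stood apart from the other 5 libraries. A list of 14 hepatocyte markers summed to 30096 FPKM in it and to between 48.8 and 107 FPKM elsewhere, with Alb (albumin) at 15895 FPKM against at most 56.2 FPKM. The sum of 8 erythroid markers was 18835 FPKM in control replicate 2 and at most 1861 FPKM in the others, with Hbb-bs (beta-globin) at 7026 FPKM. The 10 neuron markers summed to 564 FPKM there and to 1019 to 1115 FPKM elsewhere, with Tubb3 (neuronal tubulin) at 178 FPKM against at least 323 FPKM. The 10 proliferation markers summed to 199 FPKM there against 46.7 to 81.9 FPKM, with Pcna (a replication clamp) at 53.2 FPKM against at most 33.4 FPKM. The 10 glia markers were highest in control replicate 3, at 1453 FPKM against 928 to 1086 FPKM in the others, with Mbp (a myelin protein) at 695 FPKM against at most 466 FPKM. No marker on these lists was at 0 in any library, and the motor neuron gene Mnx1 was too low to be tested. Fold changes of the 10 genes and of their partners are given with and without control replicate 2. In bulk tissue, fewer cells of a type and less RNA per cell cannot be told apart.

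All 10 Sm-ring and U7 Lsm genes had a value in all 6 libraries and passed the filter of a mean of at least 0.5 FPKM. Control replicate 2 held the highest of the 6 values for Snrpb, Snrpe, Snrpf, Snrpg and Lsm10 and the lowest for Snrpd2, Snrpd3, Snrpn and Lsm11, which makes 9 of 10 genes. The part of the hepatocyte, erythroid, neuron and proliferation RNA in these values was not tested.

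**Figure D1:**
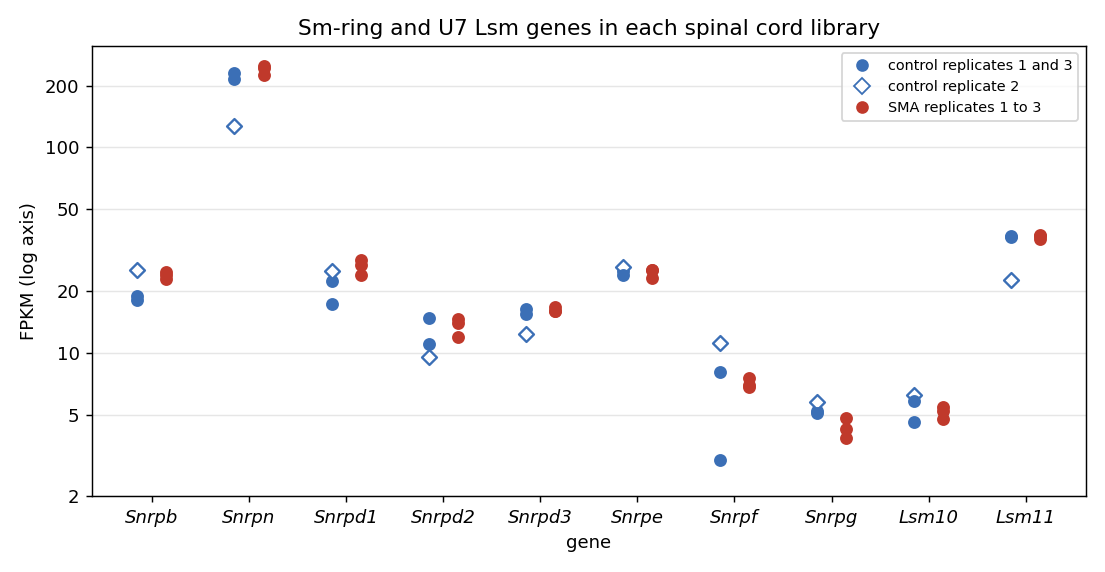
FPKM (log axis) of the 10 genes in each library, with 1 point per library, control in blue and SMA in red, and control replicate 2 as an open diamond. Snrpn lies between 128 and 250 FPKM, above the other 9 genes in all 6 libraries, and control replicate 2 is the lowest library for Snrpn and Lsm11.

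SMA was compared with control on log2(FPKM + 1), on which the change of a weakly expressed gene is understated. With all 6 libraries, 0 of the 10 genes were lower and 0 were higher at an unadjusted p under 0.05 in limma, where 2.39% of the 17088 genes tested were lower and 3.40% higher. None of the 10 genes passed a Benjamini-Hochberg adjusted p of 0.05 over all genes tested, and neither did any other gene (0%, smallest adjusted p = 0.683 in limma). The split of all genes at the unadjusted threshold was 409 lower and 581 higher, and it moved to 386 and 338 with equal summed FPKM, to 565 and 528 with median ratio scaling and to 337 and 639 with quantile normalization. Fold changes of the 10 genes ran from -0.26 for Snrpg to 0.37 for Snrpn on the log2 scale, with a median of 0.17 beside 0.04 for all genes tested.

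Without control replicate 2, 2 of the 10 genes (Snrpb and Snrpd1) were higher and 0 were lower in SMA at an unadjusted p under 0.05. Of the 16574 genes tested in those 5 libraries, 5.27% were higher and 5.20% lower. None of the 10 genes passed the adjusted threshold in limma, which 0.0121% of all genes (2 genes) did. The median log2 fold change of the 10 genes was then 0.05, beside 0.00 for all genes tested. This comparison rests on control replicates 1 and 3. Of the markers tested in it, 2 of 9 for neurons were higher and 2 of 10 for glia lower. Also lower were 5 of 10 proliferation markers (median log2 fold change -0.43) and 1 of 7 erythroid markers, and 0 of 12 hepatocyte markers passed. The part of cell types in the calls of Snrpb and Snrpd1 was not tested.

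**Figure D2:**
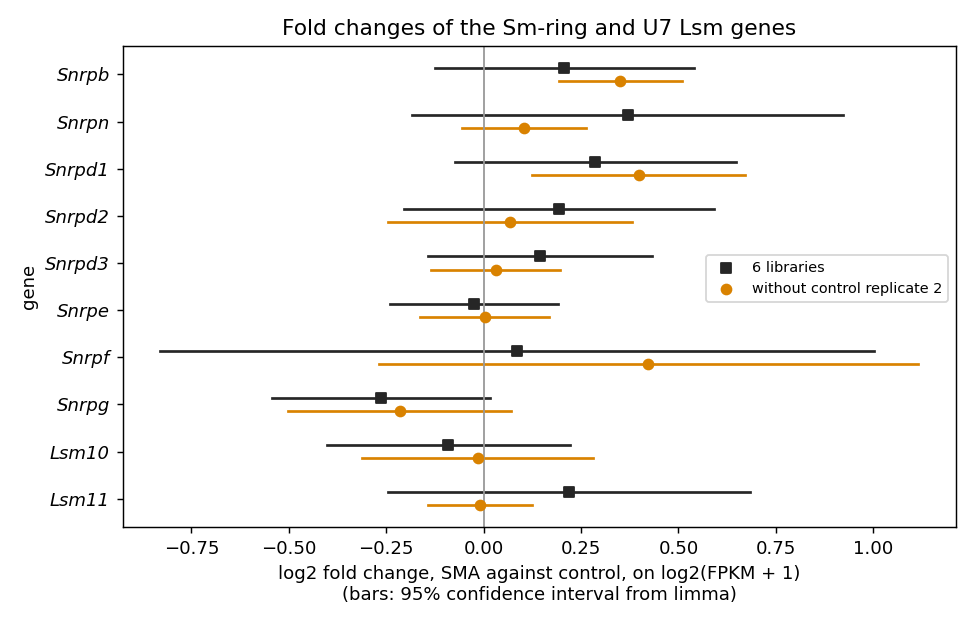
log2 fold change of each gene, SMA against control, with its 95% confidence interval from limma, for all 6 libraries (black squares) and without control replicate 2 (orange circles). With 6 libraries every interval includes 0, and without control replicate 2 those of Snrpb and Snrpd1 lie above 0.

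Snrpb (ENSMUSG00000027404, chr2:130171414-130179403) encodes SmB, the ring member with a long proline-rich tail. It measured 18.0, 25.2 and 18.9 FPKM in the control libraries (replicates 1, 2 and 3), against 22.9, 24.6 and 24.0 FPKM in the SMA libraries. Control replicate 2 lay above every SMA library, while control replicates 1 and 3 lay below all of them. SMA exceeded control by 0.21 on the log2 scale (limma standard error, SE, 0.139, adjusted p = 0.683) with 6 libraries and 0.35 (limma SE 0.0677, adjusted p = 0.273) without control replicate 2, and it was 0.12 without control replicate 1. An exact two-sided permutation test gave p = 0.4 with 6 libraries and p = 0.1 without control replicate 2. The smallest p it can give is 0.1 in either case.

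Snrpn (ENSMUSG00000102252), the SmN gene, was the most abundant of the 10. It measured 230, 128 and 215 FPKM in the control libraries (replicates 1, 2 and 3), against 225, 244 and 250 FPKM in the SMA libraries. The groups overlapped with and without control replicate 2, the lowest library for Snrpn and also for the sum of neuron markers. The log2 fold change of 0.37 (limma SE 0.232, adjusted p = 0.683) became 0.10 (limma SE 0.0685, adjusted p = 0.633) without it. The files give Snrpn the span chr7:59937371-60140219 together with 2 other genes, Snurf and the readthrough gene Gm38393. Of its 50-base stretches, 21.2% also occur in these overlapping genes, so that reads can be split among them. Gm38393, singled out after its values were seen, was at 58.2, 50.9 and 63.9 FPKM in the control libraries. In the SMA libraries it was at 68.3, 70.2 and 78.4 FPKM. All SMA libraries thus lay above all controls, which held for 10.3% of all genes tested with 6 libraries. No 50-base stretch of an annotated Snrpb transcript occurs in a Snrpn transcript.

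SmD1, SmD2 and SmD3 form the D members of the ring, and SmD1 and SmD3 carry arginine-rich tails that are methylated before loading. Snrpd1 (ENSMUSG00000002477, chr18:10617796-10628230) measured 22.3, 25.0 and 17.3 FPKM in the control libraries (replicates 1, 2 and 3), against 26.8, 28.4 and 23.8 FPKM in the SMA libraries. SMA replicate 3 lay below control replicate 2 and above the other controls. Its fold change on the log2 scale was 0.29 (limma SE 0.151, adjusted p = 0.683), and 0.40 without control replicate 2 (limma SE 0.117, adjusted p = 0.366) and 0.15 without control replicate 3. Exact two-sided permutation tests gave p = 0.2 with all libraries and p = 0.1 without control replicate 2.

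Snrpd2 (ENSMUSG00000040824, chr7:19149722-19153542) was at 14.7, 9.57 and 11.0 FPKM in the control libraries and 11.9, 13.9 and 14.6 FPKM in the SMA libraries. Its groups overlapped. SMA differed from control by 0.19 on the log2 scale (95% interval -0.20 to 0.59), and it was 0.35 with an unadjusted p of 0.0391 in limma when control replicate 1 was left out and 0.07 when control replicate 2 was. Snrpd3 (ENSMUSG00000020180) was at 15.4, 12.3 and 16.2 FPKM in the control libraries and 16.0, 16.0 and 16.7 FPKM in the SMA libraries, with a log2 fold change of 0.14 and of 0.03 without control replicate 2. Outside control replicate 2, the highest value of Snrpd3 was 1.08 times the lowest. The files give Snrpd3 a span that it shares with 3 other genes, chr10:75351111-75537373.

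SmE, SmF and SmG join the ring as a preformed trimer. Snrpe (ENSMUSG00000090553, chr1:133603871-133610291) had nearly level values, at 25.1, 26.0 and 23.9 FPKM in the control libraries and 25.3, 25.4 and 23.1 FPKM in the SMA libraries. Its log2 fold change was -0.02 (95% interval -0.24 to 0.19), and 0.00 without control replicate 2 (-0.16 to 0.17). Snrpf (ENSMUSG00000020018) was the most uneven gene of the 10, at 8.07, 11.2 and 3.01 FPKM in the control libraries against 6.93, 6.78 and 7.55 FPKM in the SMA libraries. The spread lay within the control group, since control replicates 2 and 3 were its highest and lowest libraries. The files give it a span shared with 1 other gene, chr10:93540632-93605245. Its log2 fold change was 0.09 (95% interval -0.83 to 1.00), 0.42 without control replicate 2 and -0.38 without control replicate 3.

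Snrpg (ENSMUSG00000057278, chr6:86371304-86379328) was the only one of the 10 genes whose groups did not overlap with 6 libraries. It was at 5.22, 5.79 and 5.08 FPKM in the control libraries and at 3.86, 4.23 and 4.83 FPKM in the SMA libraries, so that all SMA libraries lay below all controls. Among all genes tested, 6.67% had all SMA libraries below all controls and 10.3% had them all above. The log2 fold change was -0.26 (limma SE 0.117, adjusted p = 0.683), and p = 0.1 in the exact two-sided test by permutation was its smallest. With control replicate 2 left out the fold change was -0.22 on the log2 scale (limma SE 0.123, adjusted p = 0.581), and the exact p was 0.2. The groups of Snrpg then still did not overlap, and Snrpb and Snrpd1 had all SMA libraries above both controls, where 13.9% of all genes lay all below and 14.2% all above.

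Transcripts of several ring genes share stretches with processed pseudogenes that can take up their reads. The share of a gene's 50-base stretches that occur in genes elsewhere was 21.3% for Snrpf, 11.3% for Snrpg, 9.0% for Snrpe, 6.26% for Snrpd2, 5.56% for Snrpd1 and 4.84% for Snrpn, and under 1% for the other 4. Of the Snrpg copies, Gm8186 had values, at 0.160, 0 and 0.166 FPKM in the control libraries and 0, 0.722 and 1.16 FPKM in the SMA libraries. Of the Snrpe copies, Snrpert was at 0.286 FPKM in control replicate 2, at 0.323 FPKM in SMA replicate 1 and at 0 in the other libraries. These copies were singled out after their values were seen. Their part in the values of Snrpg, whose groups did not overlap, and of Snrpe was not tested.

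Lsm10 (ENSMUSG00000050188, chr4:126096623-126098584) was at 4.62, 6.25 and 5.82 FPKM in the control libraries and 5.42, 4.78 and 5.21 FPKM in the SMA libraries. All SMA values lay within the range of the controls. Its log2 fold change was -0.09 (95% interval -0.40 to 0.22), -0.01 without control replicate 2 and -0.20 without control replicate 1. Lsm11 (ENSMUSG00000044847, chr11:45928269-45944935), which also binds other histone processing factors through its long amino-terminal part, was at 36.5, 22.6 and 37.1 FPKM in the control libraries and 35.6, 37.3 and 36.9 FPKM in the SMA libraries. Outside control replicate 2 its highest value was 1.05 times its lowest, the narrowest range of the 10 genes. SMA differed from control by 0.22 on the log2 scale (95% interval -0.25 to 0.68) with 6 libraries and -0.01 (-0.14 to 0.13) without control replicate 2.

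In order of mean FPKM over the 6 libraries, Snrpn (215) was followed by Lsm11 (34.3), Snrpe (24.8), Snrpd1 (23.9), Snrpb (22.3), Snrpd3 (15.4), Snrpd2 (12.6), Snrpf (7.25), Lsm10 (5.35) and Snrpg (4.83). Only the steps from Snrpn to Lsm11 and from Snrpb to Snrpd3 separated neighbours whose ranges over the libraries did not overlap. Snrpe lay above Snrpd1 in 3 of 6 libraries, which were the controls, and below it in all SMA libraries. Snrpd1 lay above Snrpb in 3 of 6 libraries, from both groups. FPKM is scaled to length, and the annotated exons of these genes span from 861 bases in Snrpf to 6453 bases in Lsm11.

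Proteins that occupy the same place in a ring were set against each other within each library, where a ratio does not depend on how the library was scaled. Snrpn made up 92.7%, 83.5% and 91.9% of the summed Snrpn and Snrpb FPKM in the control libraries, and 90.8%, 90.8% and 91.2% in the SMA libraries. With 6 libraries the mean share was 89.4% ± 5.11 in control and 91.0% ± 0.262 in SMA (SD, n = 3 each), with overlapping groups. The exact two-sided permutation test gave p = 1 (adjusted p = 1 over the 3 ratios). Without control replicate 2, whose sum of neuron markers was also the lowest, the direction turned. All SMA libraries then lay below both controls, by 1.39 percentage points on average (p = 0.1 in the exact two-sided test by permutation, its smallest, with adjusted p = 0.3). Without that library Snrpn itself was higher in SMA by 0.10 on the log2 scale, and Snrpb was higher by 0.35. Over the 6 libraries the FPKM of Snrpn was 5.06 to 12.8 times that of Snrpb.

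The log2 ratio of Lsm10 to Snrpd1 was -2.27, -2.00 and -1.57 in the control libraries, against -2.31, -2.57 and -2.19 in the SMA libraries. SMA was lower by 0.41 on average and by 0.43 without control replicate 2, and control replicate 1 lay inside the range of the SMA libraries (exact two-sided permutation test, p = 0.2 in both cases, adjusted p = 0.6 and 0.3). The log2 ratio of Lsm11 to Snrpd2 was 1.31, 1.24 and 1.75 in the control libraries, against 1.58, 1.43 and 1.34 in the SMA libraries. Its mean differed by 0.02 with 6 libraries and by -0.08 without control replicate 2 (exact two-sided permutation test, p = 0.9 and p = 0.7). The U7 genes thus stood on opposite sides of the genes they replace in all 6 libraries, with Lsm10 below Snrpd1 and Lsm11 above Snrpd2.

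**Figure D3:**
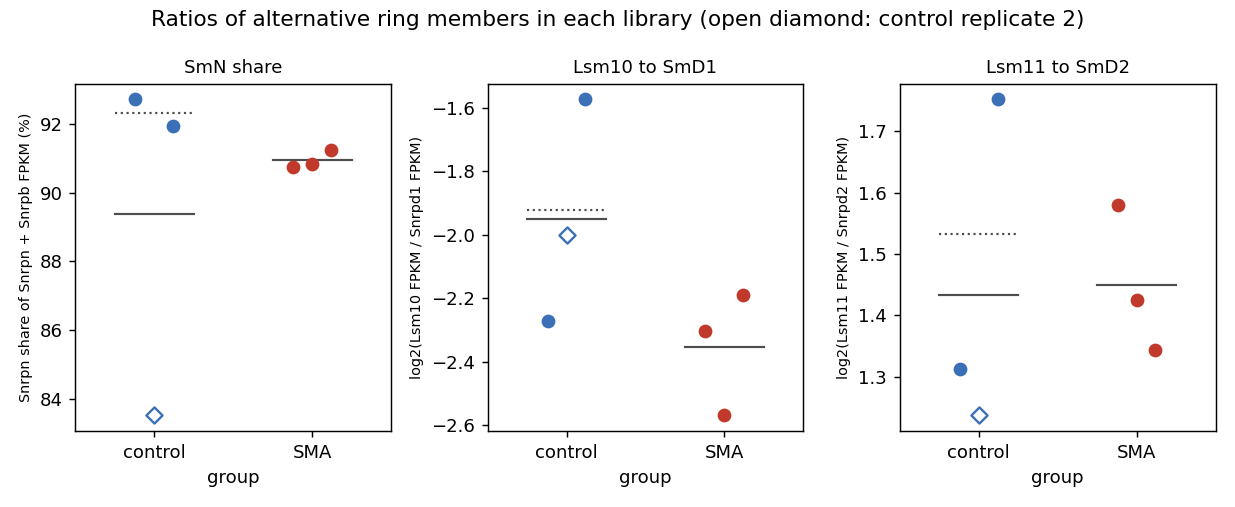
Share of Snrpn in the summed Snrpn and Snrpb FPKM (%), and log2 FPKM ratios of Lsm10 to Snrpd1 and of Lsm11 to Snrpd2, with 1 point per library. Solid lines are group means, the dotted line is the control mean without control replicate 2 (open diamond), and without it the SmN share is lower in all 3 SMA libraries, at 90.8% to 91.2%, than in both controls.

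The partners of these proteins and the neighbours of Snrpn in its locus were examined as 7 lists with 78 genes in all. Of these, 78 had values and 77 were tested. At an unadjusted p under 0.05, 1 was lower and 2 were higher in SMA, beside 2.39% lower and 3.40% higher in the whole set, and 0 passed the adjusted threshold in limma. Without control replicate 2 these counts were 3 lower and 4 higher, beside 5.20% lower and 5.27% higher in the whole set. The median log2 fold change of the 77 genes was 0.06, and 0.00 without that library.

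In the SMN complex, which holds the ring proteins before loading, 0 of 9 genes passed the unadjusted threshold. Its most abundant genes, Strap and Gemin7 at means of 37.8 and 13.4 FPKM, had log2 fold changes of 0.03 and 0.22. These were -0.13 and 0.10 without control replicate 2, with all SMA libraries below both controls for Strap. Gemin8 was higher at the unadjusted threshold in that comparison (log2 fold change 0.46, and 0.32 with 6 libraries). In the methylosome, which methylates SmB, SmD1 and SmD3, 0 of 6 genes passed, and Prmt5 and Wdr77 at means of 21.4 and 20.9 FPKM had log2 fold changes of 0.35 and 0.04, and of 0.15 and -0.09 without control replicate 2. Of 12 other Lsm genes, many of whose products act in U6 or in other steps of RNA metabolism, 0 passed. Lsm14b and Lsm12, the most abundant at 36.7 and 32.4 FPKM, had log2 fold changes of 0.11 and -0.23. They were -0.08 and -0.33 without control replicate 2, where all SMA libraries lay below both controls for both genes. In that comparison 13.9% of all genes tested lay all below, and Lsm12 was lower at the unadjusted threshold.

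Among 28 genes for proteins specific to U1, U2, U4/U6 or U5, 2 were higher at an unadjusted p under 0.05, beside 3.40% of the whole set. Snrpa1, the U2 A′ protein, was at 15.0, 12.4 and 12.2 FPKM in the control libraries and 15.8, 17.3 and 17.6 FPKM in the SMA libraries, with all SMA libraries above all controls. Its log2 fold change was 0.34 (limma SE 0.111, adjusted p = 0.683) and 0.30 without control replicate 2. Snrnp200, the helicase that unwinds U4 from U6, was at 33.8, 29.3 and 30.3 FPKM in the control libraries and 38.3, 37.4 and 36.1 FPKM in SMA. Its log2 fold change was 0.25 (limma SE 0.0941, adjusted p = 0.683) and 0.21 without control replicate 2. Both lost the unadjusted threshold when control replicate 3, SMA replicate 2 or SMA replicate 3 was left out, with log2 fold changes between 0.24 and 0.33, and Snrnp200 also without SMA replicate 1 (0.24). Sf3b1 and Prpf8 were the most abundant of the list, at 71.8 and 48.8 FPKM. Their log2 fold changes were 0.18 and 0.12, and 0.14 and 0.08 without control replicate 2. In both comparisons all SMA libraries lay above all controls for these genes. This held for 10.3% of all genes tested with 6 libraries and for 14.2% without control replicate 2. Sf3b2 and Snrnp27 passed the unadjusted threshold without control replicate 2 and not with 6 libraries. The log2 fold change of Sf3b2 was 0.14 without that library and 0.21 with it. Snrnp27 was at 16.0, 10.1 and 15.4 FPKM in the control libraries and 9.40, 10.2 and 10.4 FPKM in SMA, a log2 fold change of -0.60 without that library and -0.40 with it.

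Of 8 cap, export and import factors, 0 passed with 6 libraries, with Kpnb1 and Xpo1 (means of 40.6 and 32.7 FPKM) at log2 fold changes of -0.02 and -0.14. These moved to -0.06 and -0.22 without control replicate 2, where the groups of Kpnb1 overlapped. Xpo1 was lower there at the unadjusted threshold, with all SMA libraries below both controls, beside 13.9% of all genes tested. Of 9 histone processing factors, 8 were tested, since Zfp473 was under the filter, and 1 was lower at the unadjusted threshold. This was Eri1, an exonuclease that trims histone mRNA ends, at 4.92, 4.96 and 3.35 FPKM in the control libraries and 3.24, 3.06 and 2.92 FPKM in the SMA libraries (log2 fold change -0.40, limma SE 0.155, adjusted p = 0.683). Without control replicate 2 its log2 fold change was -0.32 and its unadjusted p was 0.0795 in limma, and leaving out control replicate 1 or any SMA library also took it over the threshold, with log2 fold changes from -0.43 to -0.32. Cstf2 and Sympk, at 46.0 and 19.5 FPKM, had log2 fold changes of 0.18 and 0.02, and of 0.04 and 0.03 without control replicate 2. The replication-dependent histone genes, whose pre-mRNAs the U7 particle cuts, numbered 68 tested, with 4 lower and 0 higher (2.39% and 3.40% in the whole set) and a median log2 fold change of -0.91. Their summed FPKM was 2188, 7846 and 1872 in the control libraries and 2052, 1679 and 1773 in the SMA libraries, the highest value again in control replicate 2, where the proliferation markers were also highest. Without that library the median was -0.18, with 17 genes lower and 3 higher, beside the 5.20% lower and 5.27% higher of the whole set. Of the proliferation markers, 5 of 10 were then also lower at the unadjusted threshold, with a median log2 fold change of -0.43. With 6 libraries 3 of 10 were lower, beside the same 2.39% of the whole set. Among them was Pcna, at 33.4, 53.2 and 29.3 FPKM in the control libraries and 24.6, 20.9 and 23.8 FPKM in SMA (log2 fold change -0.67, and -0.42 without control replicate 2). The 10 markers summed to 81.9 and 68.5 FPKM in control replicates 1 and 3 and 61.2, 46.7 and 54.6 FPKM in the SMA libraries. The part of proliferating cells in the histone values was not tested.

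Of 6 neighbours of Snrpn in the imprinted locus, 0 passed the unadjusted threshold. Ndn and Ube3a, the most abundant at 78.2 and 49.3 FPKM, had log2 fold changes of 0.38 and 0.09, and 0.09 and -0.02 without control replicate 2. For Ndn all SMA libraries lay above all controls in both comparisons. This held for 10.3% of all genes tested with 6 libraries and for 14.2% without control replicate 2.

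**Figure D4:**
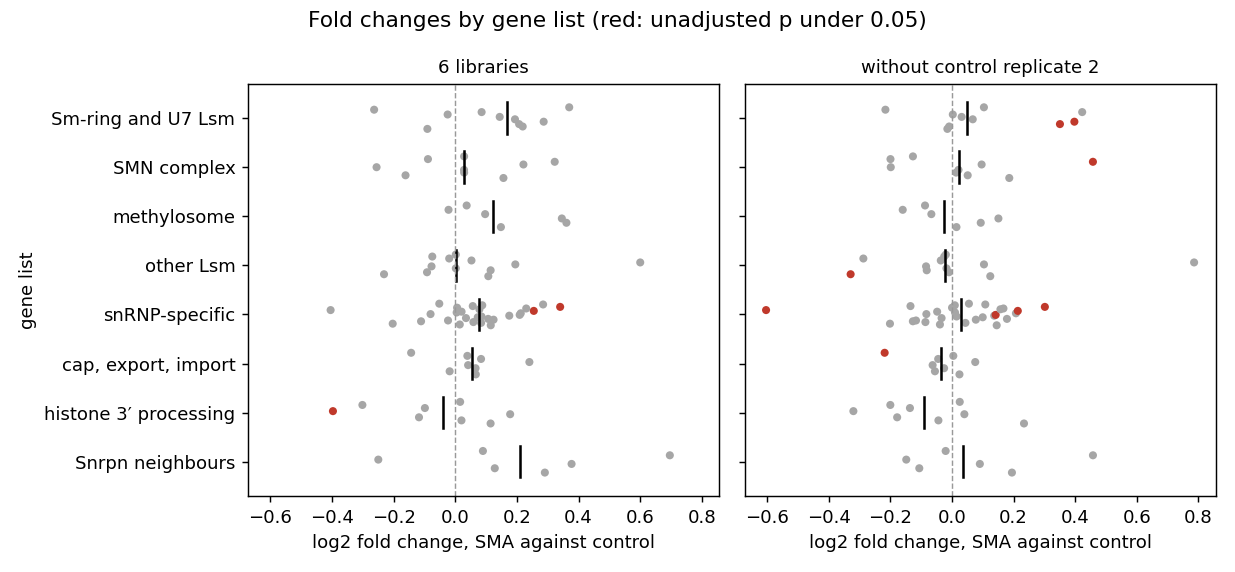
log2 fold change (SMA against control) of each gene tested, by list, with all 6 libraries on the left and without control replicate 2 on the right. Points are genes, red where the unadjusted p is under 0.05, and bars are list medians, which for the Sm-ring and U7 Lsm genes are 0.17 and 0.05.

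The genes with a pattern most like that of Snrpn over the 6 libraries were Plppr4, Mob4 and Parm1, each with a Pearson correlation of log2(FPKM + 1) of 0.999 or more, as a description over 17088 genes. All 3 were lowest in control replicate 2, as Plppr4 shows with 20.6, 11.5 and 19.5 FPKM in the control libraries and 20.5, 22.3 and 22.9 FPKM in the SMA libraries. Over the 5 libraries without it, Gm37931, Plppr4 and Rnd1 came first, with correlations of 0.994. For the mean of the other 9 genes the most alike were Rpl35a-ps6, Rpl35a-ps2 and mt-Nd6, with correlations of 0.996, 0.985 and 0.983 over 6 libraries. These 3 were lowest in control replicate 3, with mt-Nd6 at 373, 435 and 228 FPKM in the control libraries and 401, 439 and 455 FPKM in the SMA libraries. Over 5 libraries Zbtb8a, Ndst4 and Slc35d3 came first, each with a correlation of 0.998.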

How the data were processed

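Bulk-seq of 6 spinal cord libraries was analysed from the deposited FPKM values, which the authors computed per gene and library with Cufflinks after HISAT2 alignment to mm10 of reads from strand-specific, ribosomal RNA-depleted libraries. Versions of these tools and the annotation are not given in the sources used here, nor is whether strand was used in counting. A gene absent from a library was set to 0. Genes averaging 0.5 FPKM or more were compared on log2(FPKM + 1) with lmFit and eBayes (variance trend) of limma 3.58.1 in R 4.3.3, two-sided, with Benjamini-Hochberg adjustment across every gene tested. The procedure was tested on simulated data, with outcomes that are not reported here. Single genes and the 3 ratios also had an exact permutation test, which cannot give p below 0.1 for 3 libraries against 3 or against 2.

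Loci in the files match GRCm38 and are written from base 1. Copies were sought as 50-base stretches shared between GENCODE M21 transcripts on the sense strand. Unannotated copies were not sought. Some planned results on small nuclear RNAs are not reported here. Members and lists were chosen with earlier results of these data known. Named are all 10 members, Smn1, the most abundant marker per cell type, and the 3 genes most alike in pattern. From each list of partners or neighbours, the genes at an unadjusted p under 0.05 and the 2 most abundant are named. Of the former at most 5 are named, otherwise the 3 with the largest fold change. Replication-dependent histone genes are counted and not named. Genes named for other reasons are marked in the text or passed the threshold without control replicate 2. Alternatives were a pseudocount of 0.1, other filters, scalings and variance models, the replicate number as a block, and leaving out each library. Array weights and median ratio scaling without control replicate 2 were added after seeing the data. So was the recount of the lists of partners and neighbours under each alternative.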

Additional observations from a re-analysis of the deposited data

How the results depend on the processing

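Under every alternative tried, 0 of the 10 Sm-ring and U7 Lsm genes were lower at an unadjusted p under 0.05 and 0 passed an adjusted p of 0.05. The number higher at the unadjusted threshold was 0 under the other settings of the fit with all libraries and between 0 and 2 when a library was left out (1 without control replicate 1, which was Snrpd2, and 2 without control replicate 2, which were Snrpb and Snrpd1). Exceptions were 2 genes, again Snrpb and Snrpd1, with array weights and with median ratio scaling and control replicate 2 left out, both chosen after seeing the data. Over all genes tested, 1032 of 17115 were higher without control replicate 1 and 874 of 16574 without control replicate 2, against 581 of 17088 in the main fit. With array weights 711 of 17088 were higher, and 838 of 16561 with median ratio scaling and control replicate 2 left out. The cause of these changes was not tested.

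Log2 fold changes of Snrpb, Snrpd1, Snrpd2, Snrpd3, Snrpg, Snrpn and Lsm10 kept their sign throughout. With a library left out, they ran from 0.12 to 0.35, 0.15 to 0.40, 0.07 to 0.35, 0.03 to 0.22, -0.33 to -0.20, 0.10 to 0.53 and -0.20 to -0.01 in that order. In the same fits that of Snrpe ran from -0.0558 to 0.0180, that of Snrpf from -0.38 to 0.42 and that of Lsm11 from -0.00888 to 0.34, and Lsm11 was at -0.0119 with median ratio scaling and control replicate 2 left out. The difference in SmN share ran from -1.39 to 3.23 percentage points, with the negative value without control replicate 2 alone. The log2 ratio of Lsm10 to Snrpd1 differed by -0.57 (without control replicate 1) to -0.22 (without control replicate 3), and the exact p ran from 0.1, the smallest it can be, to 0.4. The log2 ratio of Lsm11 to Snrpd2 differed by -0.0827 to 0.17 with a library left out and by -0.00187 as a ratio of group sums.

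Of the 77 genes tested on the lists of partners and Snrpn neighbours, 3 passed the unadjusted threshold. With a library left out between 0 and 7 passed (0 without SMA replicate 2 or 3). There were 6 with median ratio scaling, 8 with array weights and 7 with median ratio scaling and control replicate 2 left out. Over all genes tested, 409 were lower and 581 higher of 17088 in the main fit. Without SMA replicate 2 these were 142 and 255 of 17117, and without SMA replicate 3 they were 125 and 214 of 17098. With median ratio scaling they were 565 and 528 of 17098, and with control replicate 2 also left out 897 and 838 of 16561. Array weights gave 619 and 711 of 17088. With all libraries, Snrnp200 missed the threshold with equal summed FPKM and with the replicate number as a block, Snrpa1 with the block, and Eri1 with quantile normalization and without a filter. Eri1 also missed it with median ratio scaling and control replicate 2 left out. All 3 genes kept their sign.

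Deviations of libraries sharing a replicate number correlated at -0.0370, 0.0161 and 0.0766, too few values to decide pairing. With the number as a block, 1 pathway gene (Eri1) and 0 of the 10 members passed the unadjusted threshold. A balanced block cannot alter fold changes or the SmN share difference (1.56 points).

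Depth is unknown, so counting error cannot be given. Gene-level FPKM does not separate isoforms, alleles or near-identical copies. With 3 libraries a group and 1 control apart from the rest, intervals for single genes are wide, and values without control replicate 2 rest on 2 controls.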
